A study of Mus musculus with 11 samples.

Results

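The Hox genes are the homeobox genes of the Hoxa, Hoxb, Hoxc and Hoxd clusters, and their members here were every row of the deposited count table whose mouse symbol is one of these cluster names followed by digits only, with antisense and opposite-strand transcripts left out. This gave 38 of the 39017 genes in the table: 11 in the Hoxa cluster, 10 in Hoxb, 9 in Hoxc and 8 in Hoxd. Hoxd4 is not analysed here. The RNA was bound to tagged ribosomes of spinal cord microglia from female C57BL/6 mice labelled healthy, in 5 libraries of a conditional knockout of Kdm6a (cKO2, cKO4, cKO5, cKO6 and cKO7) and 6 wild-type libraries (WT8, WT9, WT13, WT15, WT16 and WT17). All 11 libraries came from RiboTag mice carrying Tmem119-Cre/ERT2, a tamoxifen-dependent Cre driven by the microglial gene Tmem119 that switches on a tagged ribosomal protein, and in cKO the same Cre deleted Kdm6a. The sources used here give neither ages nor tamoxifen times. They do not say whether every library had its own mouse, so p-values here reflect the spread among libraries, which may be technical. Values in single libraries are always given in the order of these 2 lists of libraries.

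Hox proteins are transcription factors that bind DNA through a homeodomain, mostly together with TALE homeodomain cofactors of the Pbx, Meis and Pknox families. Within a cluster the genes lie in the order of their paralog groups, and genes with higher group numbers are switched on later and further towards the tail of the embryo, so that neurons and glia of the spinal cord keep a Hox pattern that reflects their level along the body. Genes of the Hox clusters are textbook targets of histone H3 lysine 27 trimethylation, which Polycomb repressive complex 2 writes and which Kdm6a and Kdm6b, as H3K27 demethylases, can remove. Microglia arise from yolk sac progenitors, and Hoxb8 is known in mice as a marker of part of the microglial lineage and as a gene whose loss causes compulsive grooming.

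No Hox gene passed the test between cKO and WT libraries, and most members leaned lower in cKO. Of the 38 genes, 32 had enough reads to test, and 0 were higher and 0 lower in cKO at a Benjamini-Hochberg adjusted p of 0.05 (edgeR's quasi-likelihood test), where 4.29% of all 16025 genes tested passed, 1.86% higher and 2.43% lower in cKO. At an unadjusted p under 0.05, 6 of the 32 Hox genes passed, a share close to the 18.3% of all genes, and all 6 were lower in cKO, a direction that 10.2% of all genes showed at this p. With DESeq2, where 7.25% of all genes passed, 1 Hox gene did, Hoxd3. The log2 fold change was negative for 26 of the 32 genes, against 51.6% of all genes tested, and its median was -0.34 over the Hox genes and -0.01 over all genes. A fit without WT13, WT16 and WT17, the libraries with the highest summed neuron markers, kept WT8, WT9 and WT15 as the WT group. There the Hox median was -0.11, 22 of 32 genes were negative (49.4% of all genes), and 0 Hox genes passed, against 3.21% of all genes. The left-out libraries also had the highest summed Hox levels, so a median nearer to 0 follows in part from leaving them out. With fewer WT libraries the fit also has less power.

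The libraries held between 28620584 and 40943004 counts, of which 6126 (cKO6) to 15298 (WT13) came from Hox genes. A count of 0 allows a level of up to 0.0687 to 0.110 CPM (counts scaled by library size and TMM factors), taken as 3 counts per library, which covers counting error only. Between 73.5% and 83.9% of the counts from 1 to 200 in a library were even numbers, so both mates of a read pair may have been counted and the floor may stand for fewer molecules. Kdm6a itself was at 6.39, 7.31, 7.73, 6.29 and 3.80 CPM in cKO, against 12.03, 10.37, 7.46, 7.24, 10.37 and 10.08 CPM in WT. The groups overlapped, and its log2 fold change of -0.61 (SE 0.25) did not pass (edgeR adjusted p = 0.193). Reads were summed over the whole gene, and no source used here says which exons were deleted, so reads from exons that remain are included. Of 8 microglia markers 7 were detected, with summed levels of 24448 to 26379 CPM in cKO and 18382 to 23224 CPM in WT, and Aif1 was at 0 in every library, as were 58 of the 65 protein-coding genes of the table within 500 kilobases of it, so this 0 is not read as absence. Of the 7 detected, 4 rose in cKO on the log2 scale, Tmem119 by 0.40, Csf1r by 0.33, P2ry12 by 0.55 and Sall1 by 0.30 (largest edgeR adjusted p = 0.0442). When WT13, WT16 and WT17 were left out, 2 of the 7 passed and the median log2 fold change of the 7 was 0.19, against 0.30 in all libraries.

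Levels along the clusters followed the paralog groups. They are levels of the whole pulldown, which also held RNA of other cell types. Mbp, an oligodendrocyte marker, averaged 3241 CPM in cKO and 3242 CPM in WT. No library of whole spinal cord RNA is among the 11, so the cell types that the Hox reads came from cannot be told. Per kilobase of annotated exon, the mean over the 11 libraries was highest for Hoxb8 at 22.8 CPM per kilobase, then for Hoxb9 at 12.9, Hoxa7 at 7.13, Hoxd8 at 6.40, Hoxb6 at 5.84 and Hoxb5 at 5.11. By this measure Hoxb8 ranked 2334 and Hoxb9 ranked 3774 among the 16025 genes tested, so even the most abundant Hox genes were far below the leading genes of these libraries. Over the 14 genes of groups 4 to 8 the median was 3.71 CPM per kilobase, with a range of 1.20 to 22.8. Over the 8 genes of groups 1 to 3 it was 0.915, with a range of 0.00239 to 3.46.

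Groups 12 and 13, at the 5' ends of the clusters, were close to 0. Over the 6 genes of groups 10 and 11 the median was 0.747 CPM per kilobase, with a range of 0.403 to 3.31 led by Hoxc10, and over the 6 genes of groups 12 and 13 it was 0.0253, with a range of 0 to 0.164. Hoxd12 had 0 counts in every library, while 0 of 10 other protein-coding genes within 500 kilobases were at 0 throughout. Hoxb1 had 2 counts in all, in 1 library, and Hoxa13, Hoxd13, Hoxc12 and Hoxb13 had 12, 18, 13 and 44 counts in all and were at 0 in 9 or 10 of the 11 libraries. These are the 6 members that were too low to test. At the other end of the range, 27 of the 38 genes had counts in every library and 21 had at least 1 CPM in every library.

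**Figure D1:**
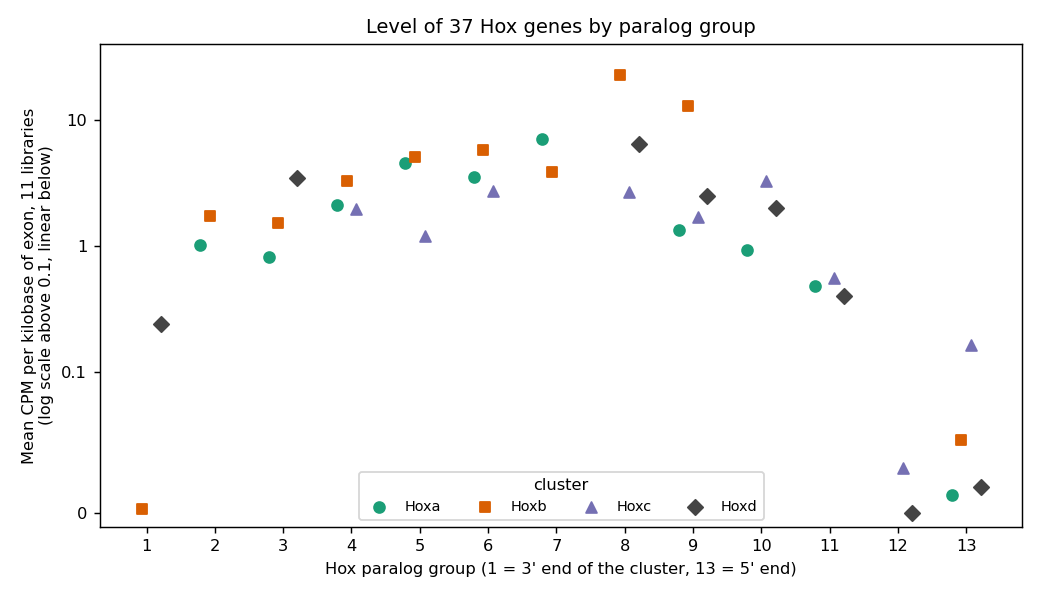
Level of 37 Hox genes (y axis, mean CPM per kilobase of exon over the 11 libraries, log scale above 0.1 and linear below) against paralog group (x axis), with a symbol for each cluster and points shifted sideways by cluster. Levels are highest in groups 4 to 9, led by Hoxb8 at 22.8 and Hoxb9 at 12.9 CPM per kilobase, and near 0 in groups 12 and 13.

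The gene models of several members overlap in span, which can limit how their counts are read. Whether their exons overlap was not checked. In the GENCODE M21 annotation the gene model of Hoxc5 (chromosome 15, 102967443 to 103017429, mm10, plus strand) spans those of Hoxc9, Hoxc8 and Hoxc6 and overlaps that of Hoxc10, that of Hoxa3 (chromosome 6, 52169062 to 52213336, minus strand) spans Hoxa4, Hoxa5 and Hoxa6, and that of Hoxd3 (chromosome 2, 74711927 to 74748442, plus strand) contains Hoxd4. No source used here says how the authors counted reads in such overlaps, or whether strand was used. The values of these members and of genes with an antisense partner are therefore uncertain. Hoxb8 (ENSMUSG00000056648, chromosome 11, 96281905 to 96285315, plus strand) overlaps no other Hox gene model in that annotation.

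Upstream sequence of members at contrasting levels is shown because CpG-rich promoters are those on which H3K27 trimethylation is usually found. RefSeq promoters (GRCm38.p6, the assembly of mm10) matched 21 of the 38 genes, with 23 starts. In the 250 bases before the start, the Hox promoters had a median of 13 CpG dinucleotides and a median ratio of observed to expected CpG of 0.755, against 6 and 0.373 over all 32851 promoters in the table. The range among the Hox promoters was 2 to 35 CpG. A Hox and Pbx binding motif, TGATTNAT searched on both strands, was found in 2 of 23 Hox promoters (8.70%), those of Hoxa2 and of 1 of the 2 Hoxd11 starts, and in 2.82% of all promoters. This is a match of letters and does not mark a bound site. The 4 sequences below run 5' to 3' towards the start, with each CpG in capitals. They are those of Hoxb8, the most abundant member, Hoxd3, the member with the smallest p, Hoxa2, the member with the largest fold change by size, and Hoxd12, the member with no counts.
Hoxb8 (chr11:96281655-96281904, plus strand): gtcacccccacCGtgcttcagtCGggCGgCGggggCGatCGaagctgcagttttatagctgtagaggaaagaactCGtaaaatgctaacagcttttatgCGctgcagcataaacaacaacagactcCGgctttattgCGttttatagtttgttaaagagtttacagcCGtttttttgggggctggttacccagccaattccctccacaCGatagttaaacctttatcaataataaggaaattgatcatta
Hoxd3 (chr2:74711743-74711992, plus strand): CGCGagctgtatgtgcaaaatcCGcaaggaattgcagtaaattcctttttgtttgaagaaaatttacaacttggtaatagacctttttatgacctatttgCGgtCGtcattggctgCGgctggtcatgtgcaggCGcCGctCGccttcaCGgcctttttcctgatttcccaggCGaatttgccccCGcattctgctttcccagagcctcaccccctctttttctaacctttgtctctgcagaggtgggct
Hoxa2 (chr6:52164832-52165081, minus strand): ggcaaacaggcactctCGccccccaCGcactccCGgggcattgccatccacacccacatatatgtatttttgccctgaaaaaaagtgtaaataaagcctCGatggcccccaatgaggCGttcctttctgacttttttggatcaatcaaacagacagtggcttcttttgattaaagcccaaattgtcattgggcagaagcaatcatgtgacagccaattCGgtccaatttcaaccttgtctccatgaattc
Hoxd12 (chr2:74674763-74675012, plus strand): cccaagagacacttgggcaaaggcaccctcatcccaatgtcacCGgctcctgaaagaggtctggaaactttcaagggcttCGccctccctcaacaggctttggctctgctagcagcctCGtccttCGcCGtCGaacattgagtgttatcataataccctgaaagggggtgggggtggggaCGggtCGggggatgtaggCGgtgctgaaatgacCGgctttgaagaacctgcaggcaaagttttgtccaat
The Hoxb8 stretch holds 12 CpG at an observed to expected ratio of 0.974, that of Hoxd3 12 at 0.802, that of Hoxa2 6 at 0.466 and that of Hoxd12 10 at 0.520. Hoxb8 and Hoxd12 differ by 2 CpG, and in the ratio by 0.974 against 0.520, while Hoxb8 was at 22.8 CPM per kilobase and Hoxd12 had no counts. The 4 genes were picked by level, p or fold change, and a relation of CpG to level was not tested.

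Among the anterior genes, which pattern the hindbrain and neck, 6 of the 7 tested members of groups 1 to 3 had negative log2 fold changes. Their summed level was 26.3 ± 4.0 CPM in cKO (SD, n = 5) and 42.8 ± 12.3 CPM in WT (SD, n = 6), and their median log2 fold change was -0.60. Hoxd3, which helps shape the upper neck vertebrae, was at 11.4, 7.08, 7.63, 4.50 and 15.3 CPM in cKO. In WT it was at 14.7, 12.3, 18.3, 12.1, 22.3 and 34.0 CPM. Only cKO7 reached into the WT range, and WT17 stood highest. This gave a log2 fold change of -1.04 with an SE of 0.31 and a 95% interval of -1.70 to -0.38 (edgeR unadjusted p = 0.00366, adjusted p = 0.069). Hoxd3 passed with DESeq2 (log2 fold change -1.05, adjusted p = 0.0156), without cKO7 (-1.30, edgeR adjusted p = 0.0233) and without WT15 (-1.14, edgeR adjusted p = 0.0352), while without WT13, WT16 and WT17 its log2 fold change was -0.50 (edgeR adjusted p = 0.612).

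Hoxa2, a regulator of hindbrain segments and of the second branchial arch, had the largest fold change by size, at low levels. It was at 0.249, 2.19, 0.630, 0.0731 and 0 CPM in cKO, and at 3.51, 0.741, 2.43, 2.38, 3.08 and 4.53 CPM in WT. The groups overlapped through cKO4 and WT9. The log2 fold change was -2.13 (SE 0.90; edgeR adjusted p = 0.200), and without cKO4 it was -3.53 and passed (edgeR adjusted p = 0.0485). Hoxb2, another hindbrain gene, averaged 6.15 ± 1.58 CPM in cKO (SD, n = 5) and 6.00 ± 2.72 CPM in WT (SD, n = 6), with a log2 fold change of 0.04 (SE 0.36). Hoxa3 and Hoxb3 had log2 fold changes of -0.37 and -0.60, and Hoxd1, at under 0.5 CPM in both groups on average, -0.24 (SE 1.52). None of these passed.

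The central genes of groups 4 to 8, which pattern the neck and trunk, were all tested, and 13 of 14 had negative log2 fold changes, with a median of -0.34. Hoxb8 was the exception and the steadiest member. It was at 60.7, 62.4, 58.2, 59.2 and 64.4 CPM in cKO, against 56.3, 63.0, 61.2, 61.5, 49.3 and 64.1 CPM in WT. Its groups overlapped almost fully, and its coefficient of variation over all 11 libraries was 7.18%. The log2 fold change was 0.04 (SE 0.10), and the 95% interval of -0.16 to 0.25 bounds any difference between cKO and WT at a small size. The sign turned negative when libraries were scaled by their totals alone (-0.043).

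Hoxa7, an Antennapedia-like gene of the trunk, was at 17.3, 17.3, 16.3, 16.7 and 22.1 CPM in cKO, against 20.2, 15.2, 33.1, 20.7, 18.4 and 28.2 CPM in WT. The groups overlapped, with WT13 and WT17 on their own at the top (log2 fold change -0.33, SE 0.19; edgeR adjusted p = 0.374). Hoxb5 was at 12.7, 11.2, 10.2, 11.3 and 14.9 CPM in cKO and at 11.6, 13.5, 24.0, 13.5, 17.3 and 16.2 CPM in WT. Again WT13 was highest and the groups overlapped (log2 fold change -0.41, SE 0.21; edgeR adjusted p = 0.303). Hoxd8 was at 17.1, 15.03, 13.3, 14.4 and 18.03 CPM in cKO and at 15.6, 17.5, 19.0, 16.1, 19.7 and 27.5 CPM in WT. Its highest library was WT17 (log2 fold change -0.30, SE 0.18; edgeR adjusted p = 0.396). Without WT13, WT16 and WT17 the log2 fold changes of Hoxa7, Hoxb5 and Hoxd8 were -0.06, -0.10 and -0.08.

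Hoxb6 was at 10.3, 9.62, 11.1, 6.07 and 11.6 CPM in cKO and at 14.8, 8.404, 15.5, 8.405, 16.99 and 13.3 CPM in WT, with WT9 and WT15 inside the cKO range (log2 fold change -0.41, SE 0.24). Hoxa5, needed for lung development and for phrenic motor neurons, was at 7.02, 6.68, 5.56, 5.15 and 10.9 CPM in cKO and 8.21, 7.81, 9.25, 8.56, 11.6 and 13.8 CPM in WT. Only cKO7 reached the WT range, and the log2 fold change was -0.48 with an SE of 0.25 (edgeR adjusted p = 0.326). Hoxb4, a regulator of blood stem cells, was at 6.80, 9.93, 7.00, 8.11 and 4.76 CPM in cKO and 8.16, 10.4, 11.95, 6.69, 10.2 and 8.44 CPM in WT, with overlap (log2 fold change -0.35, SE 0.25). Hoxc8, which sets motor neuron pools at the level of the forelimb, was at 8.79, 3.23, 10.8, 5.99 and 4.48 CPM in cKO and 11.7, 11.9, 3.07, 7.70, 7.38 and 8.44 CPM in WT, and WT13 was the lowest of all 11 libraries, the opposite of Hoxa7 and Hoxb5. Its log2 fold change was -0.33 (SE 0.34) in all libraries and -0.65 without WT13, WT16 and WT17.

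**Figure D2:**
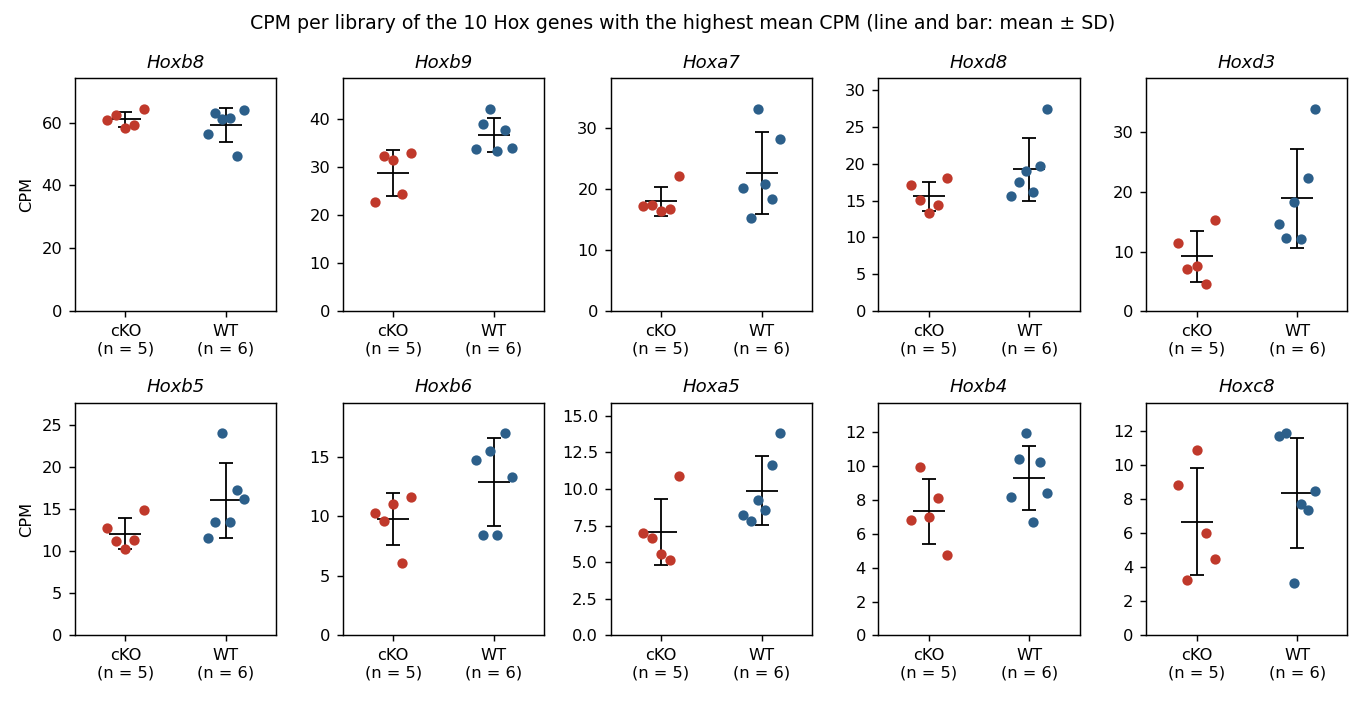
CPM (y axis, linear from 0) of the 10 Hox genes with the highest mean CPM in each cKO library (left, n = 5) and each WT library (right, n = 6), with lines and bars for mean ± SD. Hoxb8 lies between 49.3 and 64.4 CPM in every library, Hoxb9 is the panel whose groups do not touch, and the highest WT points are WT13 and WT17 for Hoxa7 and WT17 for Hoxd3.

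The remaining central genes ranged in log2 fold change between -0.91 for Hoxc6 and -0.08 for Hoxa4. Hoxc6, a gene of forelimb-level motor neurons, was chosen after its values were seen. It was at 1.75, 3.11, 6.37, 7.64 and 3.35 CPM in cKO and at 6.96, 4.44, 10.7, 5.96, 8.07 and 13.8 CPM in WT. The groups overlapped, and the log2 fold change of -0.91 (SE 0.36) did not pass (edgeR adjusted p = 0.175). Without WT13, WT16 and WT17 it was -0.39.

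The posterior genes pattern the lower trunk, limbs and tail. All 4 genes of group 9 leaned lower in cKO, with summed levels of 42.1 ± 9.5 CPM in cKO (SD, n = 5) and 56.8 ± 7.3 CPM in WT (SD, n = 6), and of the 6 genes of groups 10 and 11 3 leaned lower and 3 higher, with overlapping summed levels of 18.3 ± 5.5 and 15.9 ± 4.0 CPM in cKO and WT. Hoxb9 was at 22.7, 32.4, 31.5, 24.3 and 33.0 CPM in cKO, and at 33.7, 39.0, 42.2, 33.5, 37.8 and 34.0 CPM in WT. Every cKO library lay below every WT library, narrowly, and Hoxb9 was the 1 tested Hox gene of 32 without overlap, where 4.16% of all genes tested had none. Its log2 fold change of -0.35 had an SE of 0.13 and a 95% interval of -0.63 to -0.07 (edgeR unadjusted p = 0.0164, adjusted p = 0.158). It moved little without WT13, WT16 and WT17 (-0.30).

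Among the other group 9 members, Hoxd9 and Hoxc9, picked with their values in view, had an unadjusted p under 0.05. Hoxd9, which acts in forelimb and lumbar patterning, was at 2.62, 5.64, 3.43, 2.34 and 4.14 CPM in cKO, against 6.46, 8.83, 5.36, 4.58, 5.58 and 9.63 CPM in WT. The overlap came from cKO4, and the log2 fold change was -0.89 (SE 0.32; edgeR adjusted p = 0.127), with -0.87 when WT13, WT16 and WT17 were left out. Hoxc9, which sets thoracic motor neuron identity, was at 1.93, 4.32, 3.01, 1.02 and 3.97 CPM in cKO and 3.73, 6.89, 7.60, 3.48, 4.70 and 5.04 CPM in WT. Its groups overlapped, and the log2 fold change of -0.88 (SE 0.39) did not pass (edgeR adjusted p = 0.229). The value without the same 3 libraries was -0.72. Hoxa9, a gene of blood progenitors, had a log2 fold change of -0.26 (SE 0.28), which turned to 0.12 without them.

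Hoxc10, a gene of lumbar motor neurons, averaged 7.37 ± 2.57 CPM in cKO (SD, n = 5) and 5.43 ± 2.35 CPM in WT (SD, n = 6), a log2 fold change of 0.44 with an SE of 0.32 (edgeR adjusted p = 0.526). The values of Hoxa10 and Hoxd11 were 0.26 (SE 0.49) and 0.79 (SE 0.73) on the log2 scale, and that of Hoxd10, another lumbar gene, was -0.20 (SE 0.53). Hoxa10 ranged from 0.585 to 7.42 CPM in cKO and only from 2.41 to 3.55 CPM in WT, and its log2 fold change was -0.26 without cKO2, its highest library. Hoxc13, known for hair and nail development, had counts in 5 of 11 libraries and a log2 fold change of 1.13 with an SE of 1.63. For the low genes the test could resolve little: 9 of the 32 had an SE above 0.5, and 10 had a 95% interval between -1 and 1, against 61.6% of all genes tested.

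**Figure D3:**
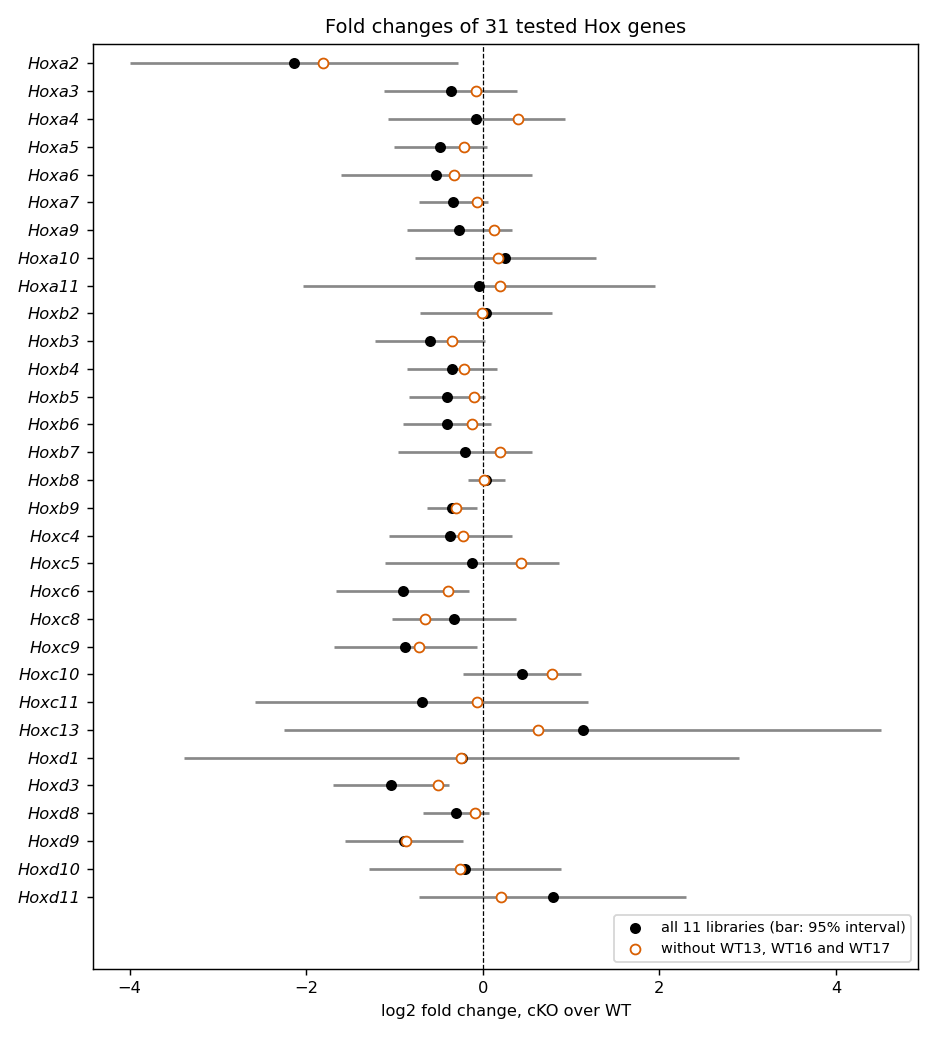
Log2 fold change of cKO over WT (x axis) for 31 tested Hox genes (y axis), with the 95% interval over all 11 libraries as a grey bar and the value without WT13, WT16 and WT17 as an open circle. Most black points lie left of 0, between -1.04 and 0.04 apart from a few, and 24 of the 31 open circles lie nearer to 0, while those of Hoxb9, Hoxd9 and Hoxc9 stay close to the black points. The left-out libraries had the highest summed Hox levels, so a shift towards 0 follows in part from leaving them out. The share of all genes that moved nearer to 0 was not computed.

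By cluster, the median log2 fold change was -0.35 in Hoxa (9 of 10 tested genes negative), -0.35 in Hoxb (6 of 8), -0.35 in Hoxc (6 of 8) and -0.27 in Hoxd (5 of 6). Summed over its genes, Hoxa was at 47.6 ± 6.3 CPM in cKO (SD, n = 5) and 61.4 ± 14.5 CPM in WT (SD, n = 6), and Hoxb at 136 ± 8 and 154 ± 14 CPM in cKO and WT. Hoxc was at 30.7 ± 6.0 CPM in cKO and 38.5 ± 7.1 CPM in WT, and Hoxd at 34.4 ± 8.3 CPM in cKO and 50.7 ± 12.3 CPM in WT. The groups overlapped in each cluster. The sum over all Hox genes was 239, 256, 249, 224 and 275 CPM in cKO, against 278, 284, 350, 255, 300 and 361 CPM in WT. WT15 lay within the cKO range, and WT13 and WT17 stood highest. Sums over the members are given with no test.

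The share of Hox counts that came from Hoxb8 was 24.6 ± 1.3% in cKO (SD, n = 5) and 19.7 ± 3.0% in WT (SD, n = 6). It was 24.1% in WT15, inside the cKO range of 23.4 to 26.4%, and 17.5, 16.4 and 17.7% in WT13, WT16 and WT17. Without Hoxb8 the summed Hox level was 178, 194, 190, 165 and 211 CPM in cKO, and 222, 221, 289, 194, 251 and 297 CPM in WT. Of the 32 tested Hox genes, 14 were highest in WT13 and 8 in WT17, or 22 together, against 31.8% of all genes tested.

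Summed markers of neurons and endothelial cells were also high in WT13 and WT17. The 10 neuron markers, all detected, summed to 1007, 1229.7, 1116, 1069.5 and 1210.4 CPM in cKO, against 1076, 1288, 2212, 1058, 1773 and 2634 CPM in WT. On average the neurofilament genes Nefh, Nefm and Nefl made up most of this sum, at 659, 389 and 372 CPM in WT and 331, 289 and 288 CPM in cKO. Snap25 averaged 100.5 CPM in cKO and 99.2 CPM in WT. Of the 10 log2 fold changes 8 were negative, and those of Snap25 (0.02) and Chat (0.10) were not. The 8 astrocyte markers summed to 1376 to 1575 CPM in cKO and 1375 to 2039 CPM in WT, and the 8 oligodendrocyte markers to 4781 to 5480.1 CPM in cKO and 4663 to 6012 CPM in WT. The 6 endothelial markers summed to 36.9 to 44.7 CPM in cKO and 46.7 to 126 CPM in WT, and the 6 mural markers to 15.1 to 35.7 CPM in cKO and 19.4 to 96.4 CPM in WT. Endothelial markers were highest in WT13 (126 CPM) and WT17 (76.4 CPM). Of these endothelial genes, Pecam1 (-0.58, edgeR adjusted p = 0.0174) and Kdr (-1.30, edgeR adjusted p = 0.0466) fell in cKO on the log2 scale. Cspg4 of 4 oligodendrocyte precursor markers did too (-1.09, edgeR adjusted p = 0.0422). Without WT13, WT16 and WT17, and so with fewer WT libraries, none of these passed. The median log2 fold change was then -0.06 for the endothelial markers, against -1.07 in all libraries. For the precursor markers it was -0.11, against -0.39. The endothelial sums of WT8, WT9 and WT15, at 46.7, 58.5 and 57.2 CPM, still lay above every cKO library (at most 44.7 CPM). No marker on these lists was at 0 in every library. Markers of border macrophages and of monocytes and neutrophils, 4 each, summed to at most 0.681 and 1.05 CPM in cKO and 1.25 and 1.71 CPM in WT, with Pf4, Lyve1 and Ly6c2 at 0 throughout. Near Ly6c2, 13 of 26 protein-coding genes within 500 kilobases were at 0 too, against 25.8% of all protein-coding genes in the table, so its 0 is not read as absence. The sums for 4 ependymal, 5 fibroblast, 4 Schwann cell and 3 erythroid markers reached 15.8, 144, 666 and 3.18 CPM in cKO and 36.6, 172, 748 and 2.32 CPM in WT, with overlap. Their part in the Hox differences was not tested, and in a bulk pulldown fewer cells of a type and less RNA per cell cannot be told apart. A further fit had a term for the mean of the markers of neurons, astrocytes and oligodendrocytes. In that fit 20 of 32 Hox genes had negative log2 fold changes (49.7% of all genes), with a median of -0.26. There 0 Hox genes passed, where 223 of all 16025 genes tested were higher and 396 lower in cKO.

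**Figure D4:**
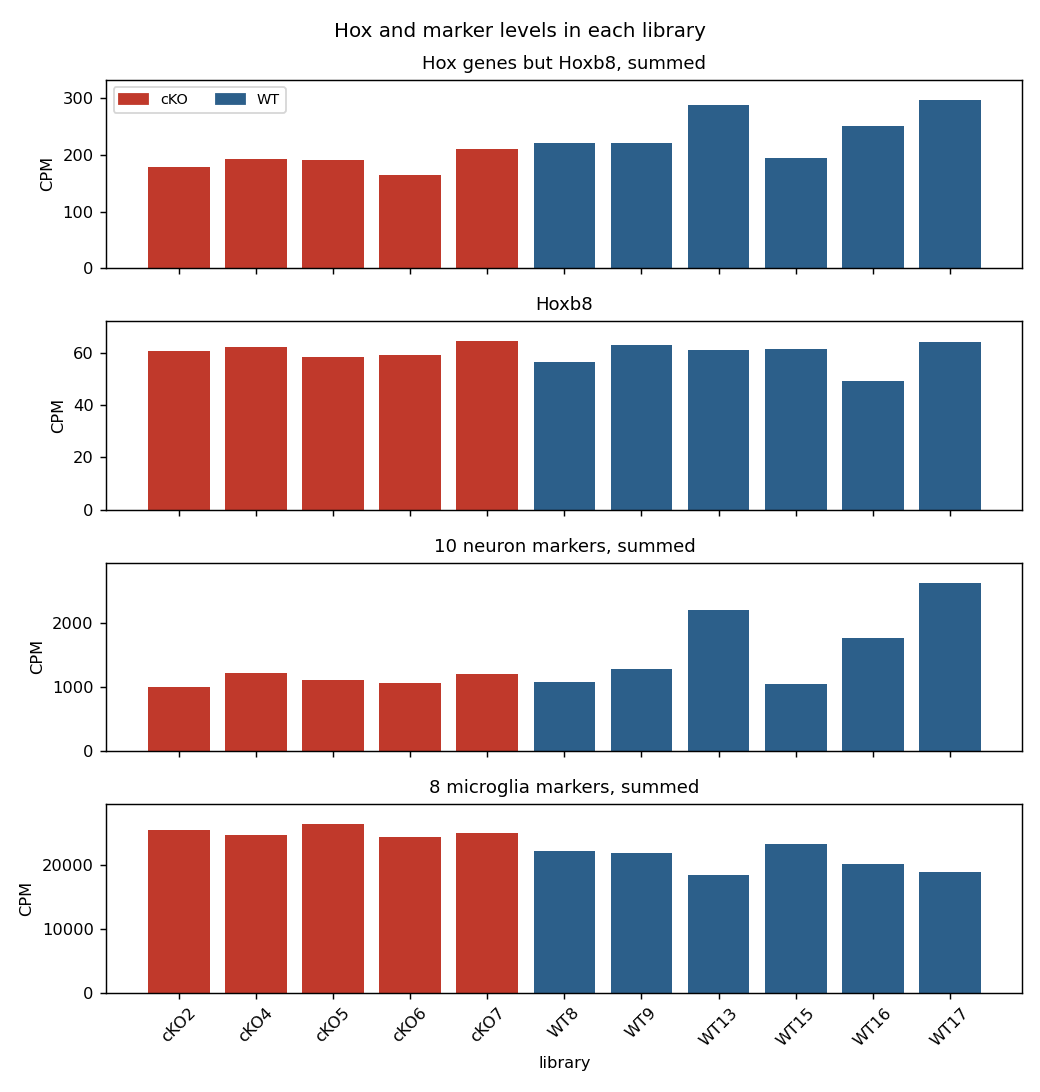
Summed CPM of the Hox genes without Hoxb8, CPM of Hoxb8, and summed CPM of 10 neuron and 8 microglia markers (y axes, from 0) in each library (x axis), with cKO libraries in red at the left and WT libraries in blue. The Hox sum and the neuron sum, most of it from neurofilament genes, are highest in WT13, WT16 and WT17. Hoxb8 is level at 49.3 to 64.4 CPM, and the microglia markers are lowest in the same 3 libraries.

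Noncoding genes of the clusters leaned the same way as their neighbours. How reads in overlaps and on either strand were counted is not known, so their values may not be independent of those of the Hox genes. Of 15 listed antisense and noncoding genes 11 had a row in the table and 9 were tested, with 0 higher and 0 lower in cKO, 8 negative log2 fold changes and a median of -0.44. Hoxb3os, antisense to Hoxb3, averaged 9.35 ± 2.35 CPM in cKO (SD, n = 5) and 14.6 ± 5.6 CPM in WT (SD, n = 6), a log2 fold change of -0.64 with an SE of 0.27 (edgeR adjusted p = 0.194). Hoxaas3 averaged 5.12 ± 1.39 CPM in cKO and 7.71 ± 2.24 CPM in WT (log2 fold change -0.59, SE 0.28; edgeR adjusted p = 0.271). Hottip, a noncoding gene at the 5' end of Hoxa, was at 0 in every library. Without WT13, WT16 and WT17 the median of the tested noncoding genes was -0.12.

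Outside the clusters the neighbouring genes did not lean lower. Of 22 listed flanking genes 19 were tested, 0 passed in either direction, 6 were negative, and their log2 fold changes had a median of 0.04. The 2 with the highest mean level were Nfe2l1, a transcription factor of the proteasome response on the side of Hoxb, at 486 ± 29 CPM in cKO and 440.5 ± 20.8 CPM in WT (log2 fold change 0.14, SE 0.07), and Nfe2l2, the oxidative stress regulator Nrf2 on the side of Hoxd, at 214 ± 14 CPM in cKO and 213 ± 42 CPM in WT (0.0014, SE 0.11).

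The DNA-binding partners of Hox proteins were present and showed no call. Of 9 TALE cofactors 8 were tested, with 0 higher and 0 lower in cKO and a median log2 fold change of -0.00003. Their summed level was 132 to 169 CPM in cKO and 142 to 156 CPM in WT. Pknox1 was highest at 50.7 ± 8.6 CPM in cKO (SD, n = 5) and 46.4 ± 10.2 CPM in WT (SD, n = 6), with a log2 fold change of 0.13 (SE 0.15, 95% interval -0.19 to 0.45). Meis1 had a log2 fold change of 0.07 (SE 0.24), and Pbx2 was at 0 in every library, as were 59 of the 60 protein-coding genes of the table within 500 kilobases of it, so this 0 is not read as absence. Among 9 ParaHox and Hox-linked homeobox genes 6, the genes Cdx1, Cdx2, Cdx4, Gsx1, Gsx2 and Pdx1, were at 0 in every library, and the 1 tested, Mnx1, a motor neuron gene, had a log2 fold change of -1.04 (SE 1.16).

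Among the enzymes that set and remove H3K27 methylation, Kdm6b was at 35.9 ± 5.9 CPM in cKO (SD, n = 5) and 36.6 ± 8.0 CPM in WT (SD, n = 6), with a log2 fold change of -0.03 (SE 0.16). Of 11 genes of the methylating complex, all tested, 1 rose in cKO and 0 fell. This was Eed, the subunit that binds the methyl mark, at 25.2 ± 4.1 CPM in cKO and 15.4 ± 2.2 CPM in WT (log2 fold change 0.71, SE 0.16; edgeR adjusted p = 0.0129). Without WT13, WT16 and WT17, which leaves WT8, WT9 and WT15 as the WT group and less power, 0 genes of the complex passed. The median log2 fold change of the 11 genes was then 0.06, against 0.20 in all libraries. Ezh2 and Ezh1, the catalytic subunits, had log2 fold changes of 0.54 (SE 0.78) and 0.03 (SE 0.09).

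Other developmental regulators that are textbook H3K27 methylation targets were set beside the Hox genes. Of 69 listed genes 20 were at 0 in every library and 28 could be tested, 0 were higher and 0 lower in cKO, 21 of 28 had negative log2 fold changes, and the median was -0.44, or -0.19 without WT13, WT16 and WT17. Among the 20, Tbx1 lies where 19 of 21 protein-coding genes within 500 kilobases were at 0 too, so its 0 is not read as absence. Their summed level was 76.8 to 102 CPM in cKO and 89.8 to 143 CPM in WT. The 2 with the highest mean level, both genes of oligodendrocytes, were Olig2 at 17.2 ± 4.9 CPM in cKO and 17.5 ± 3.3 CPM in WT (log2 fold change -0.03, SE 0.21) and Nkx6-2 at 11.7 ± 3.1 CPM in cKO and 14.6 ± 2.5 CPM in WT (-0.33, SE 0.21). Sox2, a neural stem cell and glial factor chosen after its value was seen, had a log2 fold change of -0.57 (SE 0.24; edgeR adjusted p = 0.210).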

How the data were processed

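RNA from tagged microglial ribosomes was sequenced in 11 libraries. Per the labels' protocols, mRNA was enriched and a stranded KAPA library kit was used. Of the steps before counting, the submitters' processing notes list bcl2fastq 2.17, Trimmomatic, FastQC and mm10. Which aligner, counter, strand setting and annotation were used is not given in the sources at hand. The deposited values are raw counts per Ensembl gene, and nothing in them shows a normalization. Symbols were matched for 37607 of 39017 genes. Exon lengths and coordinates are those of GENCODE M21. Of 39 Hox symbols 38 had a row. Of these genes 1, and 1 gene of the other lists, are not reported here by name but stay in counts, sums and medians.

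The test was run with edgeR 4.0.16 (R 4.3.3). Low genes were removed with filterByExpr at a minimum count of 10 and a minimum total of 15, and TMM factors scaled the libraries. Genotype was the single term of a robust quasi-likelihood fit, and its F test was adjusted by Benjamini-Hochberg over all 16025 genes kept, with a threshold of 0.05. The SE of a log2 fold change is its size over the square root of F. CPM values use TMM-scaled library sizes and are given as mean ± SD. The procedure was checked on simulated counts. Alternatives were other scaling (library totals, DESeq2 1.42.0 size factors), other filters, DESeq2's Wald test, no robust estimation, halved counts, a marker covariate and left-out libraries. Values in each library were given for the 10 Hox genes with the highest mean CPM. They were also given for Hoxa2, Hoxc6, Hoxd9 and Hoxc9, which were picked by fold change or p and were all lower in cKO. Of every other list, up to 4 genes that passed are named, by smallest p, or where none passed the 2 with the highest mean, and further genes only as values. The members, lists and alternatives were chosen with earlier results of these data known.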

Additional observations from a re-analysis of the deposited data

Results flagged for a closer look

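A library was marked where its gap to the nearest other library of its genotype, divided by the range of the group, passed Dixon's 95% critical value (0.71 for 5 libraries, 0.625 for 6), on log2(CPM + 0.5). Of 74 groups tested 5 held such a library, where chance gives about 1 in 20, or 3.7. Hoxa7 was high in cKO7 (4.50 against 4.07 to 4.16 in the other cKO libraries, ratio 0.806), and Hoxc10 was high in cKO5 (3.63 against 2.65 to 2.91, ratio 0.735). Hoxd11 was low in cKO6 (-0.48 against 1.42 to 2.10, ratio 0.738). In WT13, Hoxb2 (0.76 against 2.59 to 3.28 in the other WT libraries, ratio 0.725) and Hoxc8 (1.83 against 2.98 to 3.63, ratio 0.638) were low, although 14 of the 32 tested Hox genes had their highest level in that library.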

How the results depend on the processing

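The counts of genes and the Hox median were recomputed under 20 alternatives, 11 of which left out 1 library, and single genes and summed CPM under those of the 20 that could give them a value. The number of Hox genes higher in cKO was 0 in all 20. The number lower was 1 with DESeq2's Wald test and ran from 0 to 1 without single libraries, the 1 being Hoxd3 with DESeq2, without cKO7 or without WT15, and Hoxa2 without cKO4. The median log2 fold change of the Hox genes was below 0 in all 20, ran from -0.41 to -0.26 without single libraries, and was -0.11 without WT13, WT16 and WT17. Without these 3 the log2 ratio of summed CPM was -0.087 for Hoxa, against -0.37 in all libraries, and -0.18 for all Hox genes but Hoxb8, against -0.39. Over all genes, 298 were higher and 389 lower in cKO. The number higher was 479 with DESeq2's Wald test, 164 without WT13, WT16 and WT17, and 170 to 388 without single libraries. The number lower was 683 with DESeq2's Wald test and 601 with library totals, which moved the median of all genes to -0.10, and 264 to 557 without single libraries. The cause was not tested.

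Of 608 alternatives computed for 31 Hox genes, 35 turned the sign. None of the 31 had passed in the main fit, so nothing follows for genes that pass. With the marker covariate the log2 fold changes were 0.23 for Hoxa11, 0.069 for Hoxa3, 0.17 for Hoxa4, 0.088 for Hoxa9, 0.19 for Hoxb7 and 0.38 for Hoxc5. Without WT13, WT16 and WT17 they were 0.19 for Hoxa11, 0.40 for Hoxa4, 0.12 for Hoxa9, -0.0055 for Hoxb2, 0.19 for Hoxb7 and 0.43 for Hoxc5. With library totals Hoxb2 was at -0.051 and Hoxb8 at -0.043. Without single libraries the values ran from -0.26 to 0.525 for Hoxa10, -0.46 to 0.28 for Hoxa11, -0.34 to 0.19 for Hoxa4, -0.18 to 0.20 for Hoxb2, -0.41 to 0.072 for Hoxb7, -0.0053 to 0.066 for Hoxb8, -0.57 to 0.32 for Hoxc5, -1.27 to 0.23 for Hoxd1 and -0.43 to 0.14 for Hoxd10. Many Hox genes are low, and 9 of the 32 tested had an SE above 0.5, which is larger than the Hox median of -0.34 in size. The smallest difference that could be detected for each gene was not computed. No paired analysis was run because the sources used here give no pairing of cKO and WT libraries, which also share no replicate numbers.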
